A study of Mus musculus with 8 samples.

Results

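The genes described here are 10 regulators of the G1 phase of the cell cycle. They were taken from the processed table by their symbols, with earlier results of these data known. They are the D-type cyclin genes *Ccnd1*, *Ccnd2* and *Ccnd3*, the kinase genes *Cdk4* and *Cdk6*, the Cip/Kip inhibitor genes *Cdkn1a* (p21), *Cdkn1b* (p27) and *Cdkn1c* (p57), the INK4 inhibitor gene *Cdkn2c* (p18), and *Rb1*, the retinoblastoma gene. All 10 were found among the 54532 genes of the table, and all 10 passed the filter on low counts that left 13560 genes for testing.

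The libraries came from *Zeb1*-/- EpCAM+ LSK cells (n = 4) and *Zeb1*-/- EpCAM- LSK cells (n = 4), where LSK stands for bone marrow cells that are Lin-, SCA-1+ and C-KIT+, the compartment of hematopoietic stem and progenitor cells. The comparison asks which transcripts separate the cells that carry the adhesion protein EpCAM from those that do not. Both fractions were C57BL/6, both carried *Zeb1* fl/fl alleles with the *Mx1-Cre* transgene, and both were taken on day 14 after pIpC had ended, so the treatment and the deletion are shared and no control mouse is part of the comparison. The *Mx1* promoter responds to interferon, which pIpC induces, and it is not restricted to stem cells. The age of the mice, and whether a pair of EpCAM+ and EpCAM- libraries came from the same mouse, are not given in the sources used here.

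In G1, mitogen signals raise D-type cyclins, which bind and activate the kinases CDK4 and CDK6. These kinases phosphorylate the retinoblastoma protein, which then releases E2F transcription factors and opens the way to DNA replication. INK4 proteins block CDK4 and CDK6 alone, whereas Cip/Kip proteins bind cyclin-CDK complexes more broadly. Hematopoietic stem cells divide rarely, and p57, p27 and p18 are each known for a part in holding them in, or releasing them from, quiescence, while CDK6 is known to set how fast they leave it.

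Libraries held 15225714 to 17073546 counts on genes in the EpCAM+ fraction and 14114491 to 15929923 in the EpCAM- fraction. *Epcam*, the gene of the sorting marker, had 2818 to 3580 counts in EpCAM+ libraries and 17 to 144 in EpCAM- libraries, so the sort labels hold in all 8. *Zeb1* gave 19.6 ± 3.75 CPM (counts scaled to the TMM library size; SD, n = 4) against 11.9 ± 2.14 CPM. Those counts are summed over the whole gene, so they do not measure the deletion. The LSK label was checked against 11 marker genes, all of which were tested. Of these, 9 were higher in EpCAM+ cells and 2 (*Cd34* and *Cd48*) were not called, the summed level of all 11 being 2870 to 3120 CPM against 1500 to 2300 CPM. *Ly6a*, which encodes SCA-1, stood at 201 ± 106 CPM against 41.3 ± 29.4 CPM. *Kit* stood at 285 ± 39.9 CPM against 208 ± 38.2 CPM, so both sorting antigens had transcripts in both fractions.

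Of the 10 genes, 1 rose and 4 fell in EpCAM+ cells, and 5 did not pass the test (edgeR's quasi-likelihood test, two-sided, Benjamini-Hochberg adjusted over 13560 genes, threshold 0.05). *Cdkn1c* rose 2.81-fold. *Cdkn1a* fell to 50.0% of its EpCAM- level, and *Rb1*, *Cdk6* and *Cdk4* fell less. Of all tested genes, 42.6% were called, 21.8% higher and 20.8% lower, so a share of 5 in 10 is close to the background and says nothing particular about the group. The replicate numbers pair the libraries, and with the replicate number as a block 7 of the 10 were called, 3 higher and 4 lower, against 50.3% of all tested genes, 25.6% higher and 24.7% lower. The CPM of the fractions did not overlap for the same 5 genes, against 40.1% of all tested genes. These are bulk samples, in which fewer cells of a type and less RNA per cell cannot be told apart.

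**Figure D1:**
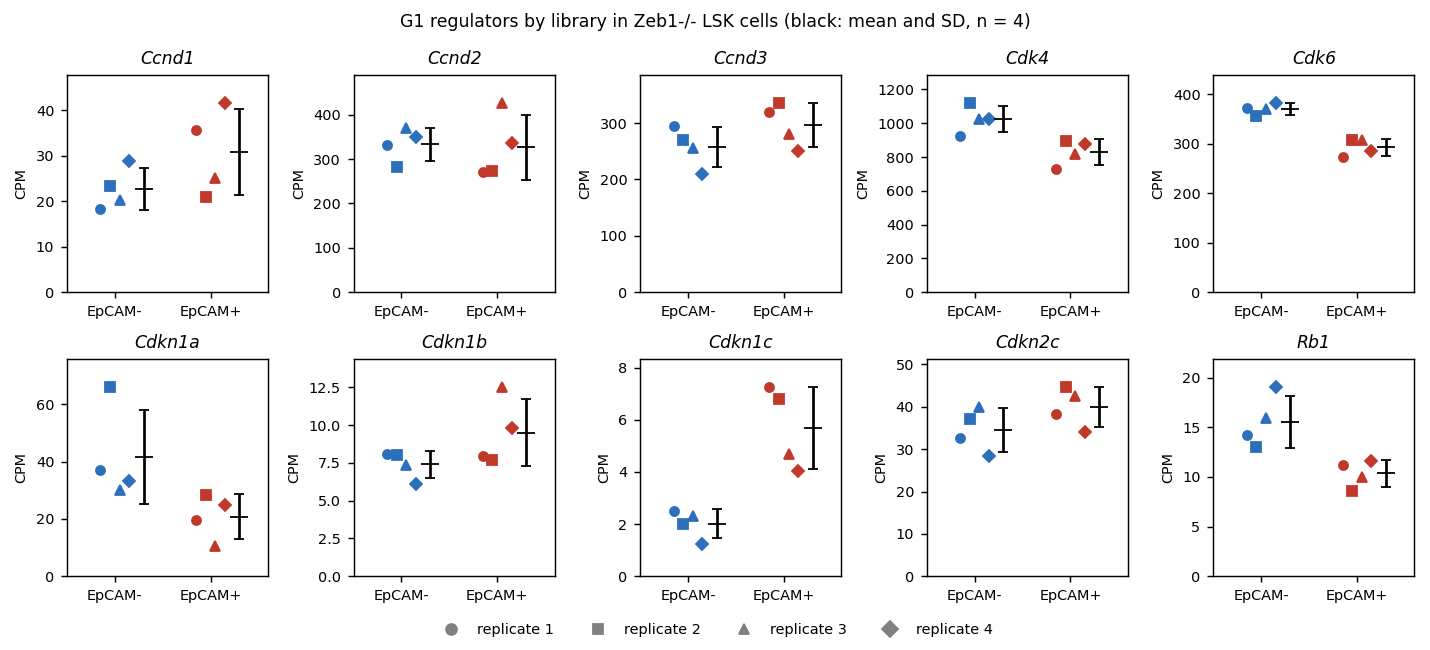
CPM of each of the 10 genes in the 4 EpCAM- libraries (blue) and the 4 EpCAM+ libraries (red), with a marker shape for each replicate number and the mean and SD in black. *Cdk4*, *Cdk6*, *Cdkn1a* and *Rb1* lie lower in every EpCAM+ library than in any EpCAM- library, *Cdkn1c* lies higher in every one, and the other 5 genes overlap.

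Without the replicate block, D-type cyclin transcripts did not pass the test in either direction, and with it *Ccnd3* alone of them was called. *Ccnd2*, the D-type cyclin with broad expression in blood progenitors, had 271, 274, 426 and 336 CPM in EpCAM+ libraries 1 to 4 and 332, 282, 370 and 349 CPM in EpCAM- libraries 1 to 4. EpCAM+ library 3 held the highest value and EpCAM+ library 1 the lowest, so the EpCAM- values all lay inside the EpCAM+ range. The log2 fold change was -0.03 ± 0.15 (SE; edgeR adjusted p = 0.887), and its sign turned with the scaling, to 0.058 with upper-quartile scaling and 0.055 with library totals.

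*Ccnd3*, whose product is the D cyclin best known for its part in lymphoid and erythroid progenitors, measured 321, 336, 281 and 251 CPM in EpCAM+ libraries and 295, 270, 256 and 209 CPM in EpCAM- libraries. The ranges overlapped, yet the EpCAM+ library was the higher one in each of the 4 pairs with the same replicate number. Without the pairing the log2 fold change of 0.21 ± 0.12 did not pass the test (edgeR adjusted p = 0.193), and with the replicate number as a block it did (0.21 ± 0.06, edgeR adjusted p = 0.0153). *Ccnd3* (chromosome 17) shares its 3′ end with *Bysl*, on the opposite strand, which had 6927 counts over the 8 libraries against 34685 for *Ccnd3*.

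*Ccnd1*, the D cyclin gene that responds most readily to mitogens in many tissues, was the lowest of the family. It gave 35.6, 21.0, 25.1 and 41.6 CPM in EpCAM+ libraries and 18.4, 23.4, 20.3 and 28.8 CPM in EpCAM- libraries. EpCAM+ libraries 1 and 4 were above all EpCAM- libraries, and EpCAM+ libraries 2 and 3 were within their range. On the log2 scale *Ccnd1* differed by 0.44 ± 0.22 without passing the test (edgeR adjusted p = 0.124). EpCAM+ libraries 1 and 4 were also those with the highest sum over the 7 conventional dendritic cell markers, at 4680 and 4730 CPM. That sum was 399 and 1170 CPM in EpCAM+ libraries 2 and 3, and 103 to 160 CPM in EpCAM- libraries. Most of it was the MHC class II gene *H2-Ab1*, at 2622 CPM on average in EpCAM+ libraries and 114 CPM in EpCAM- libraries. *Xcr1* averaged 81.3 and 0.403 CPM, and *Zbtb46* was not called. Without libraries 1 and 4, a choice made after seeing the data, the log2 fold change of *Ccnd1* was 0.02 ± 0.19 (edgeR adjusted p = 0.95), and without EpCAM+ library 2 it was 0.59 and passed the test (edgeR adjusted p = 0.039). EpCAM+ libraries 1 and 4 also held the highest *Ccnd1* values, so leaving them out had to lower the difference. EpCAM+ library 2 held the lowest value of its fraction, so leaving it out had to raise it. The part of dendritic cells in the result was not tested. *Oraov1* overlaps the 3′ end of *Ccnd1* on the opposite strand and had 2939 counts in all, against 3307 for *Ccnd1*. The methods of the study describe libraries made from double-stranded cDNA and name no strand-specific step. Reads of the shared stretch thus cannot be assigned with certainty.

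The kinase genes *Cdk4* and *Cdk6* both fell in EpCAM+ cells. *Cdk6* (chr5:3341485-3531008, plus strand) measured 273, 308, 307 and 286 CPM in EpCAM+ libraries and 373, 356, 371 and 383 CPM in EpCAM- libraries. Every EpCAM+ value lay below every EpCAM- value, and the spread within each fraction was small, at 294 ± 16.99 CPM against 371 ± 11.2 CPM (SD, n = 4). *Cdk6* fell by 0.34 ± 0.07 on the log2 scale (edgeR adjusted p = 0.00329), and it passed the test in all 17 other settings that were tried.

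*Cdk4* (chr10:127063534-127067920, plus strand) was the most abundant of the 10 genes, with 727, 895, 820 and 879 CPM in EpCAM+ libraries and 927, 1120, 1024 and 1025 CPM in EpCAM- libraries. All EpCAM+ values were the lower ones, though EpCAM+ library 2 and EpCAM- library 1 lay close together. *Cdk4* fell by 0.30 ± 0.09 on the log2 scale (edgeR adjusted p = 0.024). In the 4 pairs with the same replicate number the log2 differences were -0.352, -0.325, -0.321 and -0.222, and the call held with the replicate block. Without the pairing, the call rested on the scaling and on single libraries. It was lost with upper-quartile scaling (-0.22, edgeR adjusted p = 0.0944), with library totals (-0.22, edgeR adjusted p = 0.082), and without any 1 of EpCAM+ library 3 (edgeR adjusted p = 0.0603), EpCAM- library 2 (edgeR adjusted p = 0.05, at the threshold) and EpCAM- library 3 (edgeR adjusted p = 0.0532), with the direction kept. Within the library the balance of the 2 kinases hardly moved. The log2 ratio of *Cdk6* to *Cdk4* per kb of gene length was -3.60 ± 0.10 in EpCAM+ libraries and -3.57 ± 0.14 in EpCAM- libraries (SD, n = 4), with overlapping values. *Tspan31* overlaps the end of *Cdk4* on the opposite strand and itself fell by 0.29 on the log2 scale (edgeR adjusted p = 0.027), with 13115 counts in all against 114041 for *Cdk4*.

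The sequence before the start of both kinase genes is shown because each holds the E-box CACGTG, the hexamer that MYC binds, and because *Myc* was measured in the same libraries. The bases are those of RefSeq on GRCm38.p6, plus strand, 250 bases before the start, with CACGTG in capitals. The hexamer reads the same on both strands, so each match was counted 1 time. The RefSeq start of *Cdk6* lies inside the span that the table gives the gene.
Cdk4, chr10:127063285-127063534: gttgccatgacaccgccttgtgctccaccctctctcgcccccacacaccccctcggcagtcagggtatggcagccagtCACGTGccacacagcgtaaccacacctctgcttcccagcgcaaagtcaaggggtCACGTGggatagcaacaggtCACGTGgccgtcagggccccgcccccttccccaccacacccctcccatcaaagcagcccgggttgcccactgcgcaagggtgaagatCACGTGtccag
Cdk6, chr5:3343643-3343892: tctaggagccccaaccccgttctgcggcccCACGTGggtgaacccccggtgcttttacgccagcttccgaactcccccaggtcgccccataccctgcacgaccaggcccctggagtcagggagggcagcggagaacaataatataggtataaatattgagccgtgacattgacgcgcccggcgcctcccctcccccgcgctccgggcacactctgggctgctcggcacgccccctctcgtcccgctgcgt

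The *Cdk4* window held 4 such hexamers, beginning 172, 118, 98 and 11 bases before the start, and the *Cdk6* window held 1, beginning 220 bases before it. Of 32851 RefSeq windows of the same length (250 bases before to 50 after a start), 7.15% held at least 1 CACGTG and 8 windows held 4 or more. *Myc* itself had 353, 452, 504 and 452 CPM in EpCAM+ libraries and 477, 578, 659 and 615 CPM in EpCAM- libraries, and fell by 0.40 ± 0.13 on the log2 scale (edgeR adjusted p = 0.0265), with EpCAM+ library 3 inside the EpCAM- range. A match is a description of the letters, and no binding was measured.

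The 3 Cip/Kip genes did not move together. *Cdkn1c* (chr7:143458339-143461050, minus strand), which encodes p57, measured 7.26, 6.80, 4.69 and 4.02 CPM in EpCAM+ libraries and 2.50, 2.00, 2.32 and 1.25 CPM in EpCAM- libraries. These rest on 62 to 120 counts per EpCAM+ library and 17 to 40 per EpCAM- library, and the lowest EpCAM+ value still exceeded the highest EpCAM- value. *Cdkn1c* rose by 1.49 ± 0.28 on the log2 scale (edgeR adjusted p = 0.00231), the difference was positive in all 4 pairs, and it stayed between 1.31 and 1.62 in all 17 other settings, each past the test.

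*Cdkn1a* (chr17:29090976-29100727, plus strand), which encodes p21, the inhibitor best known as a target of p53, went the other way. It measured 19.7, 28.4, 10.5 and 24.7 CPM in EpCAM+ libraries and 37.0, 66.0, 30.2 and 33.4 CPM in EpCAM- libraries. The fractions did not overlap, with EpCAM- library 2 the highest of all and EpCAM+ library 3 the lowest. *Cdkn1a* thus differed by -1.0005 ± 0.31 on the log2 scale (edgeR adjusted p = 0.0263). Without EpCAM- library 2 it was -0.70 (edgeR adjusted p = 0.0729), and without EpCAM+ library 1 it was -0.98 (edgeR adjusted p = 0.0572). Without the pairing the call thus depends on single libraries, while the direction does not. The EpCAM+ library was the lower one in all 4 pairs, and the call held with the replicate block.

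*Cdkn1b* (chr6:134920401-134925513, plus strand), which encodes p27, measured 7.98, 7.71, 12.5 and 9.79 CPM in EpCAM+ libraries and 8.11, 7.99, 7.37 and 6.11 CPM in EpCAM- libraries. EpCAM+ libraries 3 and 4 were above all EpCAM- libraries, and EpCAM+ libraries 1 and 2 were within their range. The log2 fold change of 0.36 ± 0.19 did not pass the test (edgeR adjusted p = 0.14), nor did it in any other setting.

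RefSeq lists a pair of starts for *Cdkn1a*. The 250 bases before the downstream start (GRCm38.p6, plus strand) are shown because they hold CAGGTG, in capitals, an E-box that ZEB1 binds, and *Zeb1* is the gene deleted in these mice.
Cdkn1a, chr17:29093519-29093768: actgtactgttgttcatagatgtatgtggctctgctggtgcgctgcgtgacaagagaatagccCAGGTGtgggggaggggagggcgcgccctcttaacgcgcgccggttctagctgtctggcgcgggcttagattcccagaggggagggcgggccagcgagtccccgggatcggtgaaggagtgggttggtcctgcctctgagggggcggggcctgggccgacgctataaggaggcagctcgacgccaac

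That hexamer begins 187 bases before the start and was found in 20.2% of the 32851 windows when searched on both strands. The deletion is shared by both fractions, and no binding of ZEB1 was measured. The window of the upstream *Cdkn1a* start and that of *Cdkn1b* held none of the 5 motifs searched. Beside both E-boxes these were the FOXO motif GTAAACA, present in 3.65% of windows, and a pair of E2F motifs, TTTCCCGC in 1.07% of windows and TTTGGCGC in 0.514%, each searched on both strands. *Ccnd3* held GTAAACA on the minus strand 243 bases before its upstream start. *Cdkn2c* held CACGTG 34 bases after its downstream start. The 6 genes with an entry in the RefSeq table, with 9 windows in all, were *Ccnd3*, *Cdk4*, *Cdk6*, *Cdkn1a*, *Cdkn1b* and *Cdkn2c*.

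Within each library the make-up of the Cip/Kip family differed between the fractions. Per kb of gene length, *Cdkn1a* supplied 53.0 ± 12.003% of the summed Cip/Kip level in EpCAM+ libraries and 80.8 ± 5.25% in EpCAM- libraries (SD, n = 4). *Cdkn1c* supplied 26.3 ± 6.36% against 7.31 ± 2.72%, and *Cdkn1b* 20.7 ± 9.48% against 11.9 ± 2.68%. The shares of *Cdkn1a* and *Cdkn1c* did not overlap between the fractions, while those of *Cdkn1b* did. The ratio of *Cdkn1c* to *Cdkn1a* was 5.76-fold higher in EpCAM+ libraries as a geometric mean, and needs no scaling between libraries. With the FPKM of the authors, which rest on other gene lengths, the *Cdkn1c* share was 22.5% against 5.67%. These shares restate the changes of the members and carry no test.

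D cyclin shares showed no such difference. *Ccnd2* made up 45.9 ± 7.26% of the summed D-type cyclin level per kb in EpCAM+ libraries against 50.9 ± 4.56% in EpCAM- libraries, *Ccnd3* 45.3 ± 7.49% against 42.1 ± 5.33%, and *Ccnd1* 8.79 ± 2.92% against 6.99 ± 1.70% (SD, n = 4), and all 3 shares overlapped. The summed D-type cyclins over the summed kinases, per kb, gave a log2 ratio of -1.88 ± 0.17 in EpCAM+ libraries and -2.29 ± 0.17 in EpCAM- libraries. The values did not overlap, though EpCAM+ library 2 (-2.048) and EpCAM- library 1 (-2.098) lay close together. This ratio restates the changes of the members and carries no test.

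**Figure D2:**
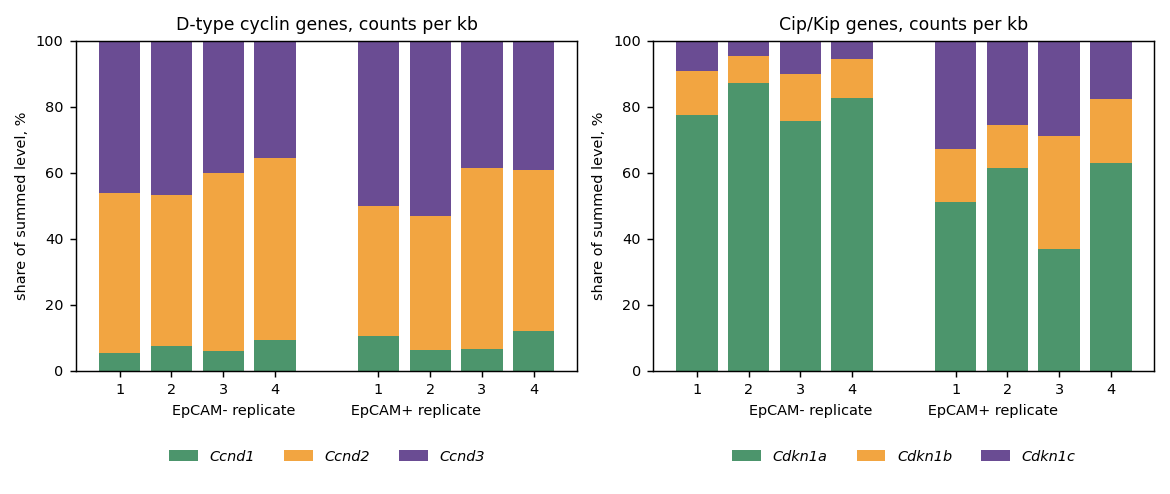
Share (%) of each D-type cyclin gene (left) and each Cip/Kip gene (right) in the summed level of its family, in counts per kb of gene length, as 1 stacked bar for each library. *Cdkn1a* takes 75.5 to 87.2% of the Cip/Kip bar in EpCAM- libraries and 36.8 to 62.8% in EpCAM+ libraries, whereas the D-type cyclin bars overlap between the fractions.

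*Cdkn2c* (chr4:109660876-109667189, minus strand), which encodes the INK4 protein p18, measured 38.3, 44.7, 42.6 and 34.0 CPM in EpCAM+ libraries and 32.6, 37.1, 40.0 and 28.3 CPM in EpCAM- libraries. The ranges overlapped, and the EpCAM+ library was the higher one in all 4 pairs. The log2 fold change was 0.21 ± 0.13 (edgeR adjusted p = 0.196), and with the replicate number as a block it was 0.21 ± 0.07 and passed the test (edgeR adjusted p = 0.0392). The genes called higher with the block were thus *Cdkn1c*, *Ccnd3* and *Cdkn2c*. Against its target kinase, *Cdkn2c* per kb gave a log2 ratio to *Cdk6* of -0.50 ± 0.13 in EpCAM+ libraries and -1.06 ± 0.25 in EpCAM- libraries, without overlap. That ratio restates the changes of both genes and carries no test.

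*Rb1* (chr14:73183673-73325822, minus strand), whose product is the substrate of the D cyclin kinases, measured 11.2, 8.56, 10 and 11.6 CPM in EpCAM+ libraries and 14.2, 13.0, 16.0 and 19.1 CPM in EpCAM- libraries. No EpCAM+ library reached the lowest EpCAM- library. *Rb1* fell by 0.59 ± 0.15 on the log2 scale (edgeR adjusted p = 0.0115), and it passed the test in all 17 other settings. *Rb1* spans *Lpar6* and reaches into *Rcbtb2*, both on the opposite strand and both with more counts than *Rb1* (4220 and 8946 in all, against 1577). *Rcbtb2* and *Lpar6* rose, by 0.44 and 0.75 on the log2 scale (edgeR adjusted p = 0.00252 and 0.00202). How reads of the shared stretches were assigned is not given in the sources used here, so the level of *Rb1* is uncertain to that extent.

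**Figure D3:**
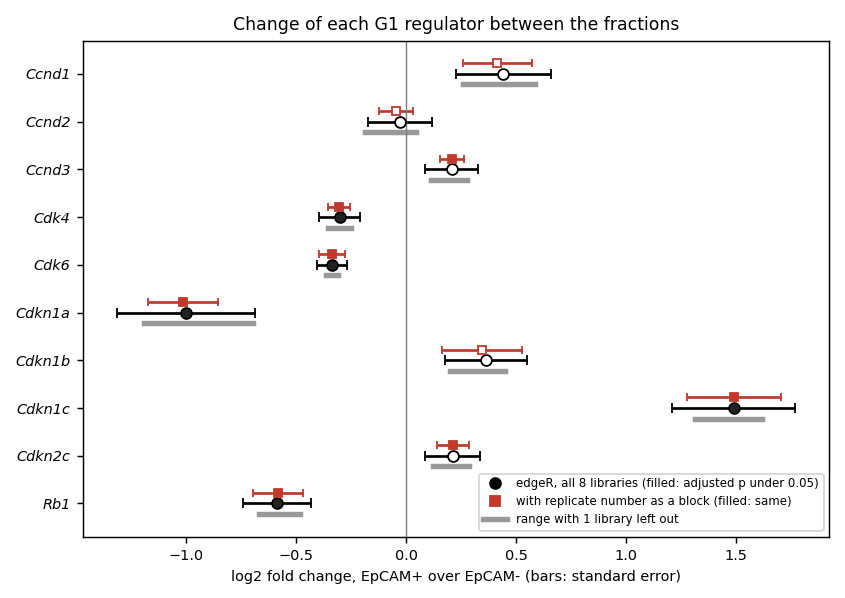
Log2 fold change (EpCAM+ over EpCAM-) of each gene with its standard error from edgeR's quasi-likelihood test without (black circles) and with (red squares) the replicate number as a block, filled where the adjusted p is under 0.05, and the range when 1 library is left out (grey bars). *Cdkn1c* at 1.49 and *Cdkn1a* at -1.0005 are the farthest from 0, and *Ccnd3* and *Cdkn2c*, both at 0.21, are filled with the block alone.

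In level per length, *Cdk4* stood far above the rest, with 255 CPM per kb in EpCAM+ libraries and 315 CPM per kb in EpCAM- libraries, above 98.6% of the tested genes. In EpCAM+ libraries the order was then *Ccnd2* (34.7 CPM per kb), *Ccnd3* (33.8), *Cdk6* (21.0), *Cdkn2c* (14.9), *Ccnd1* (6.55), *Cdkn1a* (5.86), *Cdkn1c* (2.79), *Cdkn1b* (2.09) and *Rb1* (1.72). Neighbours whose ranges overlapped there were *Ccnd2* with *Ccnd3*, and each neighbouring pair from *Ccnd1* down to *Rb1*. In EpCAM- libraries the first 5 places were the same, and *Cdkn1a* (11.7 CPM per kb) stood above *Ccnd1* (4.83), *Rb1* (2.59), *Cdkn1b* (1.62) and *Cdkn1c* (0.989), the last 5 genes being separate from one another there, while *Ccnd2* overlapped *Ccnd3*, *Ccnd3* overlapped *Cdk6* and *Cdkn2c* overlapped *Cdkn1a*. *Cdkn1c* thus moved from the last place in EpCAM- libraries to the place above *Cdkn1b* in EpCAM+ libraries, where their ranges overlapped. With the FPKM of the authors *Ccnd3* ranked above *Ccnd2* in EpCAM+ libraries and *Rb1* above *Cdkn1c* and *Cdkn1b*. In EpCAM- libraries the FPKM placed *Ccnd3* above *Ccnd2*, *Cdkn1a* above *Cdkn2c*, and *Rb1* above *Ccnd1* with overlapping ranges, so those places depend on the gene length.

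The other genes of the pathway were read from 10 lists with 88 genes in the table, 84 of them tested. Of these, 4 were called higher (4.76%) and 44 lower (52.4%) in EpCAM+ cells, against 21.8% and 20.8% of all tested genes, with a median log2 fold change of -0.27 against 0.02 over all tested genes. The count of lower calls depended on the scaling, being 30 with upper-quartile scaling and 28 with library totals, under which the median of all tested genes was 0.11. The lists overlap in function and their genes are often expressed together, so their members are not independent.

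Among the other INK4 genes, *Cdkn2d* (p19) rose by 0.39 ± 0.10 on the log2 scale (edgeR adjusted p = 0.0136), from 76.9 ± 10.2 CPM to 101 ± 9.31 CPM. *Cdkn2a* had 1 count in 1 library and 0 in the others, and *Cdkn2b* had at most 4 counts, so neither was tested. With upper-quartile scaling or library totals the direction of *Cdkn2d* was kept.

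Of 5 tested genes in the list of *Cdk2*, the E-type and A-type cyclins that drive it after the D cyclins, and the phosphatase gene *Cdc25a*, 3 were called lower and none higher (median log2 fold change -0.43). *Ccne1*, one of the cyclin E genes, showed the largest change of any gene in these lists. It had 20.1, 19.3, 16.3 and 20.6 CPM in EpCAM+ libraries and 69.5, 74.8, 91.2 and 122 CPM in EpCAM- libraries, with a wide gap between the fractions. Its log2 fold change was -2.23 ± 0.17 (edgeR adjusted p = 9.33e-05). *Ccna2* fell by 0.57 (edgeR adjusted p = 0.00165) and *Cdc25a*, which activates CDK2, by 0.43 (edgeR adjusted p = 0.0033), both on the log2 scale. *Ccne2* (-0.27) and *Cdk2* (-0.02) did not pass the test, and *Ccna1* was at 0 in all libraries.

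Of the CDK-activating kinase, *Cdk7* (-0.43, edgeR adjusted p = 0.00163) and *Ccnh* (-0.26, edgeR adjusted p = 0.0251) fell, and the assembly factor gene *Mnat1* was at 0.12 (edgeR adjusted p = 0.213). All 3 chaperone genes that load CDK4 and CDK6 fell, *Hsp90aa1* by 0.49 (edgeR adjusted p = 0.00541), *Cdc37* by 0.28 (edgeR adjusted p = 0.0102) and *Hsp90ab1* by 0.26 (edgeR adjusted p = 0.0451), and 1 of the 3 was still called with library totals.

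Pocket proteins, E2F and DP factors were split, with 1 gene of 12 called higher and 3 lower (median 0.09). *E2f4*, the E2F that represses targets with the pocket proteins in resting cells, stood at 101 to 107 CPM in EpCAM+ libraries and 159 to 230 CPM in EpCAM- libraries. It fell by 0.86 ± 0.11 on the log2 scale (edgeR adjusted p = 0.00044). *Tfdp1*, the DNA-binding partner of E2F proteins, fell by 0.57 (edgeR adjusted p = 0.00136), and *E2f7*, an atypical repressor, rose by 0.63 (edgeR adjusted p = 0.00178). The relatives of *Rb1* did not pass the test, with *Rbl1* at 0.17 (edgeR adjusted p = 0.0919) and *Rbl2* at 0.19 (edgeR adjusted p = 0.109). In the MuvB list, whose complex joins pocket proteins or B-Myb, 2 of 6 genes fell, *Mybl2* by 0.57 (edgeR adjusted p = 0.0065) and *Rbbp4* by 0.46 (edgeR adjusted p = 0.00717). The core subunit *Lin54* was at -0.18 (edgeR adjusted p = 0.179).

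Of 12 tested genes for the ubiquitin ligases that destroy D cyclins and p27, 5 fell and 1 rose (median -0.14). *Fbxo31* fell by 0.58 (edgeR adjusted p = 0.000661) and *Cul4a* by 0.58 (edgeR adjusted p = 0.00467), and the SKP2 cofactor gene *Cks1b* fell by 0.39 (edgeR adjusted p = 0.00637). Of 6 tested upstream transcription factor genes, *Foxo1*, whose product can activate p27 transcription, rose by 0.66 (edgeR adjusted p = 0.00784). *Trp53*, which encodes the activator of p21, fell by 0.41 (edgeR adjusted p = 0.00792), beside the fall of *Cdkn1a* and of *Myc* given above.

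Genes of later phases were lower or not called. Of 18 S phase genes 14 fell and none rose (median -0.35), led by *Rrm2* (-0.71, edgeR adjusted p = 0.000808), *Cdc6* (-0.67, edgeR adjusted p = 0.000896) and *Mcm5* (-0.42, edgeR adjusted p = 0.00181). With library totals 9 were lower. Of 18 mitosis genes 10 fell and none rose (median -0.28), led by *Aurka* (-0.51, edgeR adjusted p = 0.00198), *Aurkb* (-0.48, edgeR adjusted p = 0.00334) and *Plk1* (-0.56, edgeR adjusted p = 0.00864), and 5 were lower with library totals. The proliferation marker *Mki67* was 132 ± 5.41 CPM against 143 ± 18.4 CPM and did not pass the test (-0.12, edgeR adjusted p = 0.341).

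**Figure D4:**
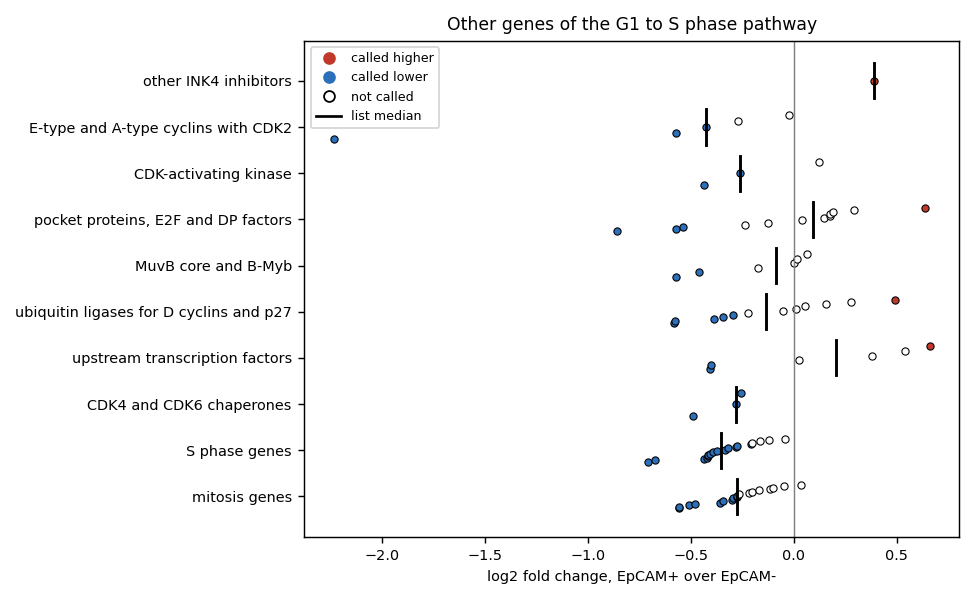
Log2 fold change (EpCAM+ over EpCAM-) of each tested gene in the 10 lists of the G1 to S phase pathway, red where called higher, blue where called lower and white where not called, with the median of each list as a black line. *Ccne1* lies farthest to the left at -2.23, and no gene of the S phase and mitosis lists is called higher.

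Transcripts of more committed cells differed between the fractions as well. Of 7 neutrophil markers 3 of the 6 tested fell, namely *Mpo*, *Elane* and *Prtn3*. *S100a8*, *S100a9* and *Ltf* were not called (log2 fold changes of -0.15, 0.17 and -0.28), and *Ly6g* was not tested. The summed level of all 7 was 996 to 1560 CPM in EpCAM+ libraries against 10600 to 17100 CPM in EpCAM- libraries. *Mpo*, the myeloperoxidase gene of granulocyte progenitors, reached 10440 CPM on average in EpCAM- libraries. Of 7 erythroid markers 5 of the 6 tested fell and *Hbb-bt* rose, the sums being 50.0 to 233 CPM against 1900 to 6620 CPM. *Car1* made up most of the erythroid sums, at 65.4 against 3443 CPM on average. Of 6 mast cell and basophil markers 3 of the 4 tested fell (66.1 to 85.5 CPM against 222 to 488 CPM), and *Tpsb2* and *Cma1* were at 0 in all EpCAM+ libraries. The sums of these lists were lower in EpCAM+ libraries, as were *Cdk4*, *Cdk6*, *Rb1*, *Cdkn1a*, *Ccne1* and the sum of the S phase genes. Within the EpCAM- fraction the lists did not run alike. In EpCAM- libraries 1 to 4 the neutrophil sums were 17100, 12000, 14000 and 10600 CPM, and the erythroid sums 1900, 2180, 4870 and 6620 CPM. The part of such cells in those results was not tested.

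The other lists of markers are given in the same way, each sum being over the whole list. Conventional dendritic cell markers rose in 5 of 6 tested genes of 7, and plasma cell markers in 2 of 4 tested of 7, with 385 to 3960 CPM against 169 to 256 CPM, the highest in EpCAM+ library 1. Of the plasma cell markers, *Jchain* averaged 1093 CPM in EpCAM+ libraries and 0.131 CPM in EpCAM- libraries. *Xbp1*, not called, averaged 238 and 225 CPM. B cell markers rose in 2 of 3 tested of 7 (71.8 to 121 CPM against 46.3 to 78.8 CPM), with *Pax5* at 0 in all libraries. Most of the B cell sum was *Cd79b*, which was not called, at 69.2 against 56.3 CPM on average. T cell markers rose in 1 of 2 tested of 7 (56.6 to 66.8 CPM against 17.1 to 30.9 CPM). Most of that sum was *Lck*, at 55.4 against 21.9 CPM on average. *Cd3e* was at 0 in all EpCAM- libraries and had at most 1 count in an EpCAM+ library. Plasmacytoid dendritic cell markers rose in 1 of 4 tested of 6 (256 to 711 CPM against 285 to 407 CPM), and megakaryocyte markers in 1 of 6 (134 to 375 CPM against 87.4 to 298 CPM). Monocyte and macrophage markers fell in 2 of 6 tested of 7 (76.0 to 316 CPM against 185 to 812 CPM). The 1 tested NK cell marker of 5, *Nkg7*, was not called (sums of 632 to 794 CPM against 685 to 884 CPM), and *Ncr1* was at 0 in all EpCAM- libraries. *Nkg7* made up most of the NK cell sums, at 730 against 797 CPM on average. Without EpCAM+ libraries 1 and 4, *Cdkn1c* (1.496, edgeR adjusted p = 0.0111), *Rb1* (-0.75, edgeR adjusted p = 0.0217) and *Cdk6* (-0.28, edgeR adjusted p = 0.0443) were still called. *Cdkn1a* (-1.10, edgeR adjusted p = 0.0789) and *Cdk4* (-0.26, edgeR adjusted p = 0.095) were not, with 2 EpCAM+ libraries left.

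**Figure D5:**
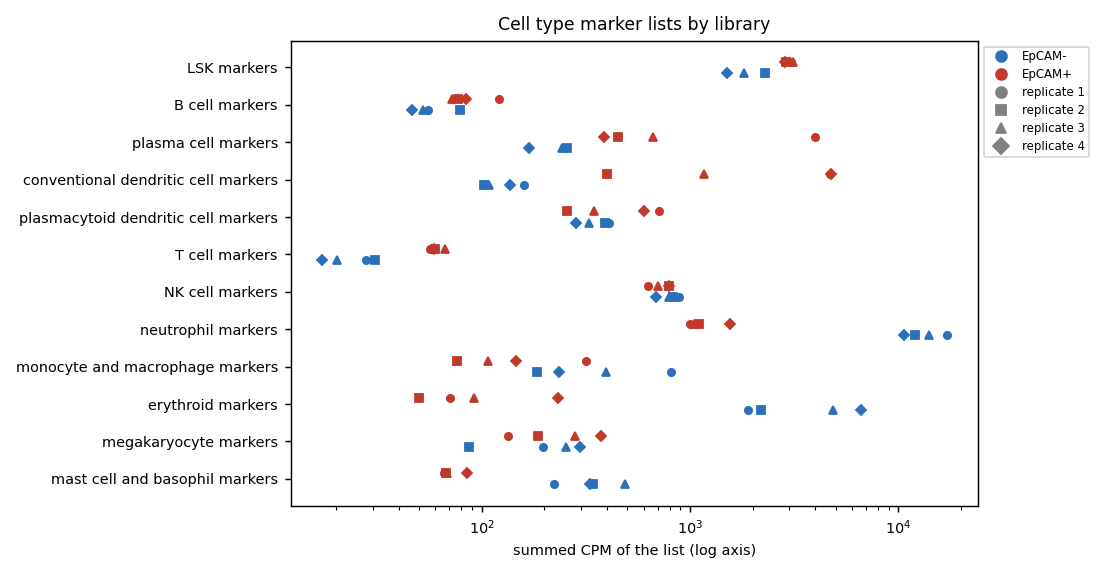
Summed CPM (log axis) of each list of cell type markers in the 4 EpCAM- libraries (blue) and the 4 EpCAM+ libraries (red), with a marker shape for each replicate number. The sums of neutrophil, erythroid and mast cell and basophil markers are lower in every EpCAM+ library, though not each neutrophil marker fell. The sum of conventional dendritic cell markers ranges from 399 to 4730 CPM among EpCAM+ libraries.

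Each gene's closest companions were taken as the pair of other protein-coding genes with the highest Pearson correlation of log2 CPM over the 8 libraries, a description in which genes that separate the fractions share that split. *Cdkn1c* was most like *Xlr4a* (0.989) and *Rhoq* (0.985), *Rb1* most like *Mia2* and *Pdzph1* (both 0.989), *Cdk4* most like *Pex10* (0.993), and *Cdk6* most like *Kpna3* (0.990). *Cdkn1a* was most like *Ccdc93* (0.969) and *Gpc3* (0.962). For the genes that did not separate the fractions the values were *Ttc5* (0.969) and *Inpp5f* (0.955) for *Ccnd1*, *Lims1* (0.953) and *Cnot7* (0.916) for *Ccnd2*, *Flot1* (0.980) and *Bcl3* (0.972) for *Ccnd3*, *Zfp273* (0.969) and *Eif1* (0.937) for *Cdkn1b*, and *Cbr1* (0.960) and *Immp1l* (0.951) for *Cdkn2c*.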

How the data were processed

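Per the methods of the study, RNA was amplified with SMART-Seq v4 and NEBNext libraries were sequenced as paired ends. The submitters' processing notes name STAR 2.6.1d, featureCounts 1.5.0-p3, DESeq2 1.20.0 and GRCm38.p6. The annotation release, the strand setting and the handling of reads mapped to several genes are not given in the sources used here. The authors deposited raw read counts per gene, which every test uses, and FPKM, which the authors computed and which serve here for a second reading of levels per length. The deposited table also holds the authors' gene lengths, used for CPM per kb, and the results of the authors' comparisons (fold changes and p-values, between fractions and between single libraries), which were not used.

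Counts were filtered with filterByExpr, scaled by TMM and tested with edgeR 4.0.16 in R 4.3.3 (glmQLFit and glmQLFTest, two-sided, Benjamini-Hochberg adjustment over 13560 genes, threshold 0.05), with both fractions in the fit and no covariate. Standard errors came from the F statistic, and log2 CPM used a prior count of 2. A gene called higher or lower passed that threshold. Alternatives were DESeq2 1.42.0, limma-trend (limma 3.58.1), other scalings (RLE size factors, upper quartile, library totals), filters of 1 count in any library or 10 counts in every library, a replicate block, omission of each library in turn and, chosen after seeing the data, EpCAM+ libraries 1 and 4 left out. The procedure was tested on simulated data. Figures were drawn with matplotlib 3.10.9 in Python 3.11.15.

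The 10 genes, the pathway and marker lists and the motifs were chosen with earlier results of these data known. From each pathway list the 3 tested genes with the smallest adjusted p were named, and *Skp1*, *Ccne2*, *Cdk2*, *Ccna1*, *Mnat1*, *Rbl1*, *Rbl2*, *Mki67* and the overlapping genes were chosen beyond that rule. The symbol *Skp1* is not in the table, where the gene is listed as *Skp1a*. Promoter windows came from RefSeq. Some genes that the rule for companion genes names are not reported here. Deviations from the fraction means correlated across genes at 0.205 to 0.356 in the 4 pairs of libraries that share a replicate number and at -0.216 to 0.04 in the 12 other pairs, so the numbers pair the samples. The methods of the study give 4 mice per genotype for these libraries, without saying which libraries share a mouse. What the libraries with the same number share is thus not given in the sources used here. The labels do not tie libraries to mice, so p-values set the difference of the fractions against the spread between these samples. No 2 libraries of a fraction were duplicates. Their counts differed by more than counting error, with a chi-square per degree of freedom of 9.8 to 91.7 between libraries of a fraction. The reads carry no molecular identifiers, so copies made in the amplification cannot be told from separate molecules.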

Additional observations from a re-analysis of the deposited data

How the results depend on the processing

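*Cdkn1c*, *Cdk6* and *Rb1* passed the test in all 17 other settings, *Cdkn1a* in 14 and *Cdk4* in 11, each with its direction kept, and *Ccnd1*, *Ccnd3* and *Cdkn2c* passed in 1 each. Of 569 alternative values, 521 were counted as unchanged. A fold change so counted kept its direction and side of the threshold. For a list median, share or ratio, the move was less than the spread between replicates. A count of called genes only had to stay within a fixed factor of the main count. Where a value moved, the cause was not tested. The sign of *Ccnd2* turned with upper-quartile scaling (0.058), with library totals (0.055), without EpCAM+ library 1 (0.044), EpCAM+ library 2 (0.045) or EpCAM- library 3 (0.017), and without EpCAM+ libraries 1 and 4 (0.065), its range with 1 library left out being -0.19 to 0.045.

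With 1 library left out the log2 fold changes ranged from 0.26 to 0.59 for *Ccnd1*, from -0.35 to -0.25 for *Cdk4* and from -1.19 to -0.70 for *Cdkn1a*. Members called numbered 1 to 2 higher and 2 to 4 lower, and genes called in all 4662 to 6039. The list medians ranged from -0.48 to -0.37 for cyclins E and A with CDK2 and from -0.13 to -0.052 for MuvB and B-Myb. With upper-quartile scaling *Cdk4* was -0.22 and the list medians were -0.34 (cyclins E and A with CDK2), 0.18 (pocket proteins, E2F and DP factors), -0.0016 (MuvB), -0.050 (ubiquitin ligases), -0.20 (chaperones) and -0.27 (S phase), with 9 pathway genes higher. With library totals *Cdk4* was -0.22 and the medians were -0.34, 0.18, -0.0038, -0.051, -0.20 and -0.27 in the same order, with 7 pathway genes higher and 28 lower. With the replicate block, which follows the pairing of the libraries, 6818 genes were called (3465 higher, 3353 lower), 3 members were higher, *Ccnd3* at 0.21 and *Cdkn2c* at 0.21 both being called, and no other member's call changed. Without EpCAM+ libraries 1 and 4, chosen after seeing the data, 3675 genes were called (1819 higher, 1856 lower), 2 members were lower, *Cdk4* was -0.26 and *Cdkn1a* -1.10, the median of cyclins E and A with CDK2 was -0.39, pathway genes numbered 2 higher and 25 lower, and the *Ccnd1* share of D-type cyclins was 0.66 percentage points lower in EpCAM+ libraries (-0.66) in place of 1.80 points higher.

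*Cdkn1c*, *Cdkn1b* and *Rb1* rest on 17 to 259 counts per library, where counting error is largest. Overlapping genes on the opposite strand limit *Rb1* and *Ccnd1* most.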
